A study of Daphnia magna with 80 samples.

Results

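Of the 26646 genes counted in whole Daphnia magna, 39 were nearly limited to females. A gene was placed in this set when its median over 39 female libraries was at least 5 CPM (counts scaled to 1000000 gene counts per library) and its median over 37 male libraries was below 0.1 CPM. The members were thus chosen by their levels in both sexes, and the gap between the sexes is given below as a description with no test. Age within females was not used in the choice, and the tests below concern age. When the sexes were exchanged in the same rule, 27 genes were nearly limited to males.

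The animals were of strain Bham2, genetically identical across the sexes per the study's title. They were kept under normal conditions in high hardness COMBO medium and frozen, the females with an empty brood pouch. Females were sampled at 15 ages from 10 to 80 days and males at 13 ages from 8 to 40 days. Of the female age groups, 10 held 3 libraries, 4 held 2 and 1, that of 70 days, held 1, while 11 male groups held 3 libraries and 2 held 2. Whether replicates of an age are separate cultures is not stated in the labels, so a p-value here speaks only of the spread among these samples, part of which may be technical.

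Daphnia reproduce mostly by parthenogenesis, in which a female makes daughters, or sons under some conditions, with her own genotype, so that both sexes can carry the same genes. A female's ovary fills with yolk between moults, and the eggs are then passed to the brood pouch on her back, where the embryos develop until they are released. Ovary, yolk synthesis and the brood pouch are features of females, and in a whole-body sample their RNA is read together with that of all other tissues. The files do not pair the gene IDs with names, and 0 of the 26646 IDs matched the reference table, so the members are given by ID and no role is assigned to any of them. In such bulk samples, fewer cells of a type and less RNA per cell cannot be told apart.

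Depth ran from 2242215 to 27789716 gene counts in female libraries and from 1599627 to 33480868 in male libraries. The libraries under 6000000 counts numbered 3, which were female 65-day replicate 2, female 75-day replicate 2 and male 33-day replicate 3. A block of 7 abundant genes that varied together took 1.03% to 66.5% of the counts of a female library, the most in 65-day replicate 3. The ratio of 2 of the spike-in RNAs split the libraries into 2 clusters that the labels do not explain. All female libraries of 10, 15, 40, 60, 65, 70 and 75 days were in the larger cluster, and all of 20, 25 and 55 days in the smaller one.

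The members' median in females ran from 5.65 CPM in APZ42_001280 to 99.9 CPM in APZ42_025114, and APZ42_031851 was next with 97.8 CPM. CPM are not divided by transcript length, so these values do not rank the genes by abundance. Near the female limit, APZ42_001280 and APZ42_019919 lay just inside with 5.65 and 5.74 CPM, and APZ42_031637 and APZ42_009559 just outside with 4.98 and 3.64 CPM. Near the male limit, APZ42_004779 and APZ42_001280 lay just inside with male medians of 0.0996 and 0.0986 CPM. APZ42_000160 and APZ42_009908 lay just outside with 0.106 and 0.111 CPM. The limits thus cut through a continuous range of values.

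Summed over the 39 genes, the female libraries held 204.4 CPM at the lowest, 1232 CPM at the median and 3795 CPM at the highest. The male libraries held 0 CPM at the lowest, 3.32 CPM at the median and 24.3 CPM at the highest. The lowest female library was 8.41-fold above the highest male library, and the medians differed 371-fold. For single members the separation was less complete. The lowest female library lay above the highest male library for 23 of the 39 genes, where 0.364% of all genes with a count did so, but the rule itself used these levels. Without female 75-day replicate 2, the shallowest female library, this held for 28 members. All female libraries had at least 1 count for 31 of the members.

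Within females the 39 genes were highest in the youngest animals. The summed level was 3174 ± 733 CPM at 10 days (SD, n = 3), with single libraries at 3795, 2366 and 3361 CPM. It was 2720 ± 262 CPM at 15 days (n = 3), 2029 ± 707 CPM at 20 days (n = 2), 1304 ± 65.0 CPM at 25 days (n = 3) and 746.3 ± 14.2 CPM at 30 days (n = 3). Each age mean up to 30 days was thus below the one before. The libraries of 25 days, at 1321, 1232 and 1359 CPM, overlapped neither those of 15 days nor those of 30 days.

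The summed level was higher again at 35 days, at 1796 ± 587 CPM (n = 3), with libraries at 1312, 2450 and 1628 CPM that all lay above the 30-day libraries. It stayed near that height at 40 days with 1922 ± 389 CPM (n = 2) and at 45 days with 1908 ± 331 CPM (n = 3). At 50 days it was 550.5 ± 101 CPM (n = 3), and the highest 50-day library, at 654.6 CPM, lay below the lowest 45-day library, at 1637 CPM. The 35-, 40- and 45-day groups overlapped one another and did not differ beyond their spread.

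At the oldest ages the means were 664.3 ± 166 CPM at 55 days (n = 3), 463.1 ± 12.7 CPM at 60 days (n = 2) and 272.3 ± 96.0 CPM at 65 days (n = 2). The single 70-day library held 545.7 CPM. The 65-day libraries, at 340.2 and 204.4 CPM, were the lowest female libraries, and the second of them is the library with the largest share of the abundant block. With library sizes scaled by the trimmed mean of M values (TMM), the 65-day mean was also the lowest of all ages, at 381.4 CPM, but relative to the spike-in counts the lowest was that of 60 days. The level was 1103 ± 587 CPM at 75 days (n = 3) and 973.6 ± 85.8 CPM at 80 days (n = 3). The 75-day libraries, at 1186, 478.5 and 1643 CPM, spanned more than the range of the 80-day libraries, and replicate 2 of that age was the low one.

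**Figure D1:**
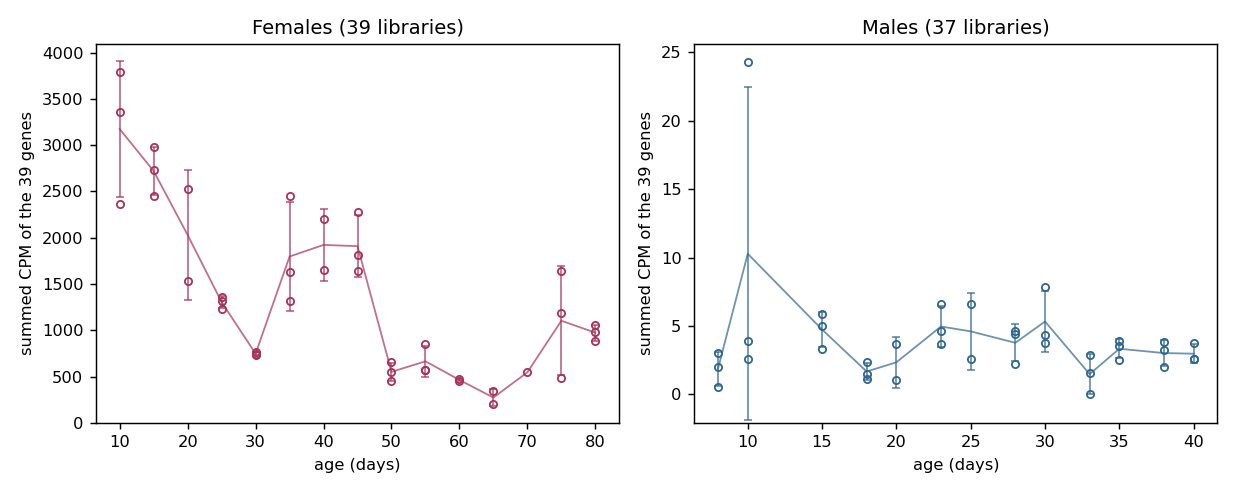
Summed CPM of the 39 genes in each library (open circles) by age in days, with the mean and SD of each age group, for females and for males on separate vertical scales. Female levels fall from 3174 CPM at 10 days to 746.3 CPM at 30 days, are at 1922 and 1908 CPM at 40 and 45 days and lowest at 65 days, while all male libraries but 1 lie at or under 7.88 CPM.

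The same course appeared gene by gene. With each member set to 100% at its own 10-day mean, the median member was at 83.1% at 15 days, 41.7% at 25 days and 23.2% at 30 days. It was at 54.1% at 35 days, 64.8% at 40 days and 61.4% at 45 days, then at 17.4% at 50 days, 7.45% at 65 days and 31.1% at 80 days. The members differed in depth of decline. At 65 days they ran from 0.328% to 20.6% of their 10-day mean, and at 80 days from 13.1% to 51.9%. The highest age mean was that of 10 days for 35 members and that of 15 days for 4. The lowest was that of 65 days for 35 members, of 70 days for 3 and of 60 days for 1. Between the highest and lowest age mean the members differed by 4.98-fold for APZ42_027211 up to 304.7-fold for APZ42_021151, and in the latter 1 library of 60 days and 1 of 65 days had no count. The 65-day mean of APZ42_021151 was 0.0926 CPM, whereas 3 counts in 65-day replicate 2 make 0.593 CPM. Its fold and its 0.328% at 65 days thus rest on few counts. All these values are by column totals, and 65-day replicate 3 had 66.5% of its counts in the abundant block. The depth of the decline at 65 days thus depends on the scaling. By column totals the summed mean was 3174 CPM at 10 days and 272.3 CPM at 65 days. With TMM-scaled sizes it was 3089 and 381.4 CPM.

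**Figure D2:**
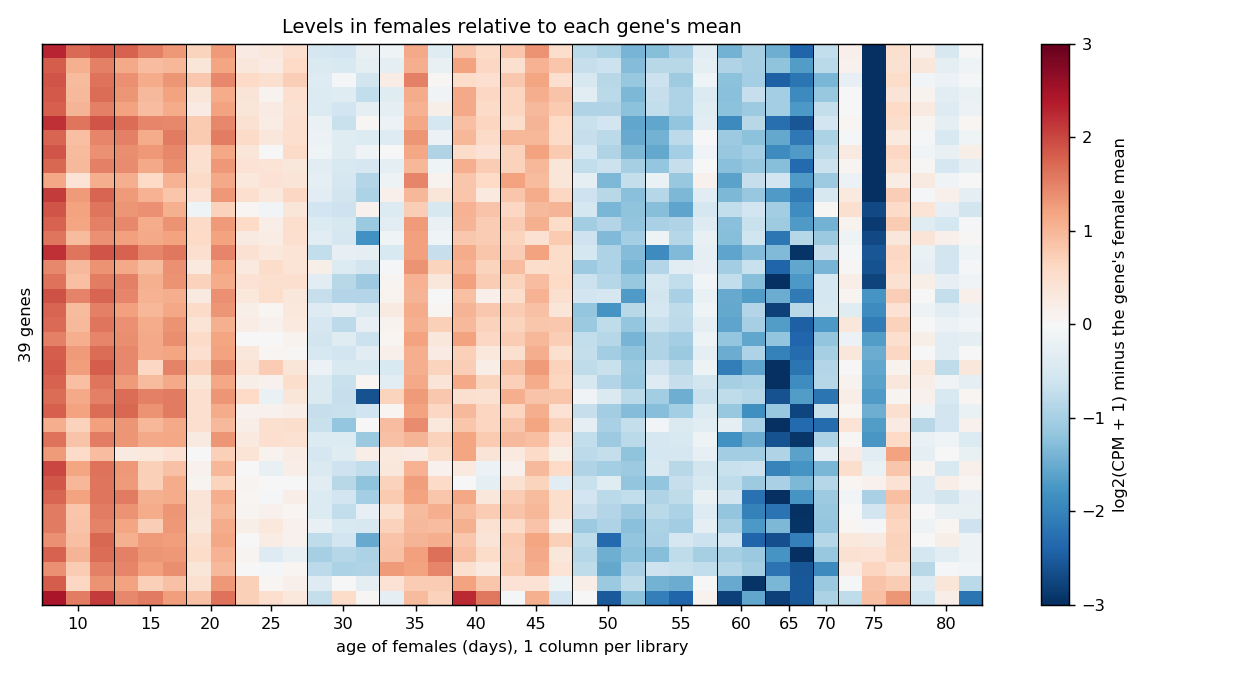
Level of each of the 39 genes (1 line each) in each of the 39 female libraries (1 column each, ordered by age in days), as log2(CPM + 1) minus the gene's mean over female libraries. The columns of 10 and 15 days are high for nearly all genes, those of 50 to 70 days low, and the second column of 75 days is uneven among genes.

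A linear slope over all 39 female libraries fell for all 39 members in edgeR's quasi-likelihood test at a Benjamini-Hochberg adjusted p under 0.05, where 20.1% of the 16300 genes tested fell and 21.8% rose. The members' slopes ran from -0.35 to -0.12 log2 per 10 days with a median of -0.26, and the median of all genes tested was 0.02. APZ42_031851 ran from 13.2 CPM at the lowest through 97.8 CPM at the median to 327.7 CPM at the highest over the 39 libraries. Its highest values were at 10 and 15 days and its lowest in 65-day replicate 3. Its slope was -0.29 ± 0.05 log2 per 10 days (SE, n = 39, adjusted p = 1.07e-05, edgeR). APZ42_021045 was at 173, 115 and 140 CPM at 10 days and at 32.2, 24.8 and 33.4 CPM at 80 days, and the 2 ages did not overlap. Its slope was -0.33 ± 0.05 log2 per 10 days (SE, n = 39, adjusted p = 1.10e-05, edgeR).

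The slope held for 38 members within the larger spike-in cluster, where 16.9% of genes tested fell. Within the smaller cluster, of 15 libraries beside 24 in the larger, 0 members were called, and 0.0407% of the genes tested there fell. All 39 slopes there were negative, with a median of -0.24. Of the members 31 had an unadjusted p under 0.05 by edgeR, where 2682 of 17197 genes had one in either direction. Scaling to the spike-in counts moved the median slope of all genes to -0.13 and that of the members to -0.41, and all 39 still fell, where 54.2% of all genes fell and 2.42% rose. A test of any difference between the 15 ages called all 39 members, against 37.7% of 20003 genes. In the authors' deposited table of an age effect, all 39 members also had a negative change at an adjusted p under 0.05, where 18.2% of its genes did. The members' change in the authors' deposited table had a median of -0.0262 log2 per day. That table has a single age term, and the libraries behind it are not stated.

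**Figure D3:**
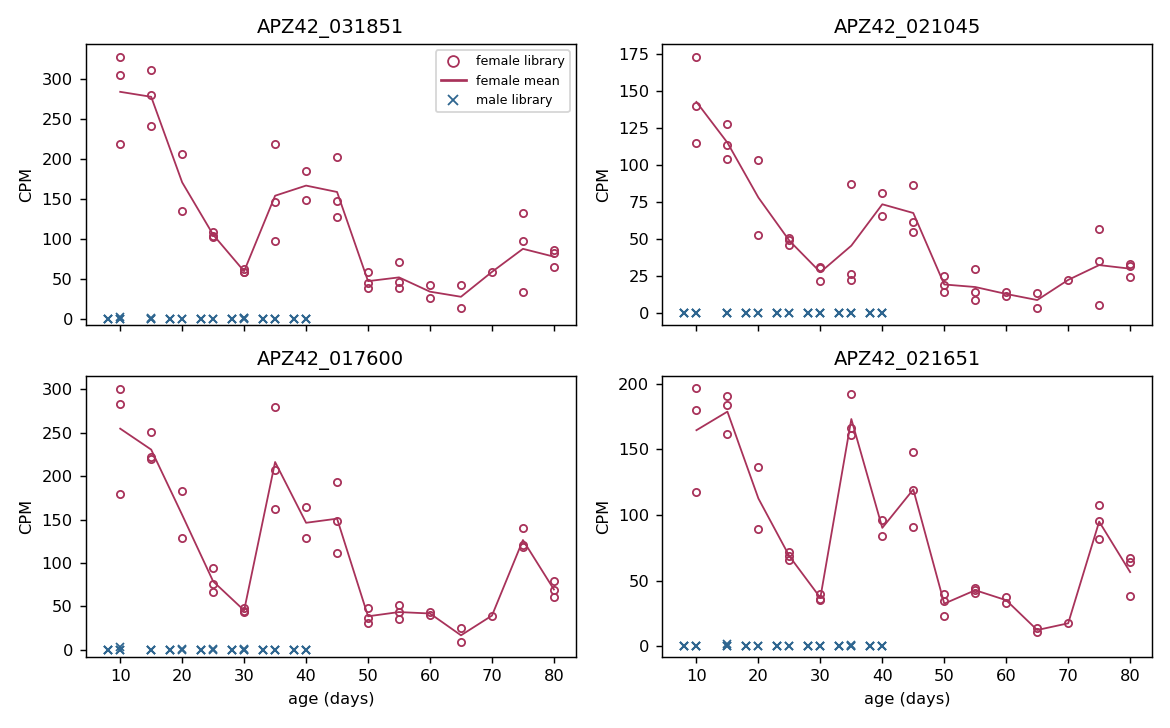
CPM of single member genes by age in days, with female libraries as open circles, the female age mean as a line and male libraries as crosses. Female age means are highest at 10 or 15 days and are higher at 35 to 45 days than at 30 days. In APZ42_021045, 35-day replicates 1 and 3 lie within the range of its 30-day libraries. The male values lie at the foot of each plot.

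A model of age and its square asked for an overall bend of the course. With a single bend it cannot show a local rise such as that of 35 to 45 days, for which the changes between successive ages are given further on. All 39 quadratic terms were positive, from 0.01 to 0.09 log2 per squared 10 days. Of these, 5 members were called, where 2.26% of genes tested were called positive, and 28 had an unadjusted p under 0.05. No negative term was called among the members by edgeR or DESeq2, where edgeR called 4.13% of genes negative, and 0 had an unadjusted p under 0.05. APZ42_001280 stood at 23.1, 12.2 and 19.3 CPM at 10 days, 3.15, 4.12 and 1.94 CPM at 50 days and 4.09, 6.63 and 5.92 CPM at 80 days. Its quadratic term was 0.09 ± 0.02 (SE, adjusted p = 0.00687, edgeR), with the lowest point of the curve at 57.8 days. APZ42_021750 had a term of 0.08 ± 0.02 (SE, adjusted p = 0.0112, edgeR) with its lowest point at 57.1 days. Both were the earliest low points among the members. They ran up to 63.8 days among the 5 called members, and up to 163.5 days, beyond the ages sampled, among all 39. The count of called members was unstable. Over the 39 fits that each left out 1 library it ran from 2 to 11, with 11 without 45-day replicate 2, 10 without 40-day replicate 1 or 75-day replicate 2, 9 without 35-day replicate 2, 8 without 45-day replicate 1 or 3, 3 without 80-day replicate 2 and 2 without 80-day replicate 1 or 3. Adding the spike-in cluster to the model left 1 called member, and within either cluster the count was 0.

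The younger and older ages were also fitted apart, and the difference between the 2 slopes was not tested. Between 10 and 40 days all 39 slopes were negative, from -0.57 to -0.09 log2 per 10 days with a median of -0.33. Of these 17 were called by edgeR, where 2.77% of 15989 genes fell, and 30 had an unadjusted p under 0.05. APZ42_004779 was at 152, 101 and 114 CPM at 10 days, at 21.2, 20.1 and 26.1 CPM at 30 days and at 55.0 and 45.8 CPM at 40 days. The 40-day values lay between the other 2 ages and overlapped neither. Its slope was -0.57 ± 0.11 log2 per 10 days (SE, n = 19, adjusted p = 0.00749, edgeR). APZ42_009798, at 72.7, 48.7 and 59.2 CPM at 10 days and 29.4 and 24.2 CPM at 40 days, had a slope of -0.55 ± 0.11 (SE, n = 19, adjusted p = 0.00777, edgeR).

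The count of 17 depended on single libraries. It was 29 without 40-day replicate 1. It was 6 without 10-day replicate 1 or 3, 8 without 10-day replicate 2, 10 without 15-day replicate 1 or 3, and 11 without 15-day replicate 2, 20-day replicate 2 or 30-day replicate 2. Adding log2 library size to the model gave 8, and adding the spike-in cluster gave 11. All 39 fell with spike-in library sizes. Between 45 and 80 days no member was called by edgeR or by DESeq2, and 0 had an unadjusted p under 0.05. The late slopes ran from -0.27 to 0.09 log2 per 10 days with a median of -0.12, and 34 of 39 were negative. In that range edgeR called 1 gene of 16194, or 0.00618%, and DESeq2 called 0.267% of genes higher and 0.486% lower with age.

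The changes between successive ages were examined in the model of 15 age groups, a comparison added after the levels had been seen. Called members appeared in 4 of the 14 steps. From 30 to 35 days 13 members rose, where 5.41% of 20003 genes rose, and all 39 changes were positive with a median of 0.90 log2. From 35 to 40 days 1 member fell, from 45 to 50 days 26 members fell, and 5 members were called higher at 75 days than in the single library of 70 days. In the other 10 steps 0 members were called by edgeR, where 1.21% of the gene-by-step tests were, DESeq2 called at most 1 in a step, and 0 to 16 members a step had an unadjusted p under 0.05. The 16 were those of the step from 25 to 30 days, in which all 39 changes were negative with a median of -0.78.

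**Figure D4:**
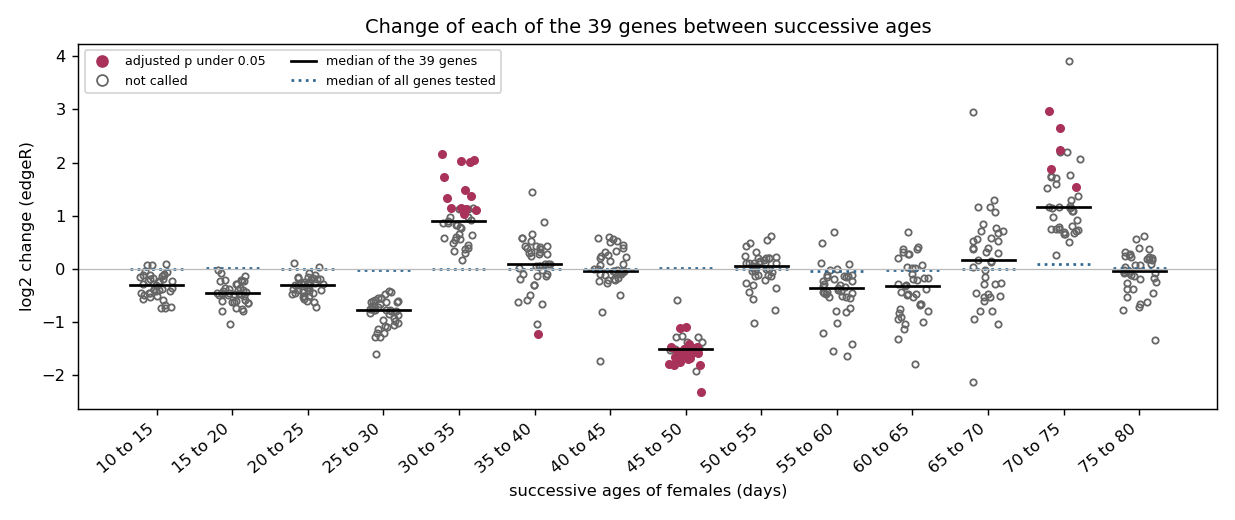
Change of each of the 39 genes between successive female ages on the log2 scale, from edgeR's model of 15 age groups. Filled points passed an adjusted p of 0.05 and open points did not, with the median of the 39 genes as a black line and that of all genes tested as a dotted line. The medians are 0.90 from 30 to 35 days, -1.51 from 45 to 50 days and 1.17 from 70 to 75 days.

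In the step from 30 to 35 days, APZ42_017600 went from 43.5, 48.0 and 44.7 CPM to 162, 207 and 280 CPM. Its 35-day libraries all lay above its 30-day libraries, and its change was 2.05 ± 0.26 log2 (SE, adjusted p = 3.59e-05, edgeR). APZ42_021651 went from 39.6, 35.3 and 36.1 CPM to 167, 161 and 192 CPM, a change of 2.04 ± 0.30 log2 (SE, adjusted p = 0.000153, edgeR). Its 35-day libraries lay within the range of its 10-day libraries, at 180, 118 and 197 CPM. APZ42_021045 instead stood at 26.8, 87.6 and 22.6 CPM at 35 days, where replicates 1 and 3 lay within the range of its 30-day libraries, at 21.9, 31.0 and 30.3 CPM. Its change of 0.44 ± 0.44 log2 was not called (SE, adjusted p = 0.592, edgeR). The count of 13 was 11 with the spike-in cluster in the model, 6 without 30-day replicate 1, 8 without 30-day replicate 3, 7 without 35-day replicate 2 and 8 without 35-day replicate 3. It was 22 without the libraries under 6000000 counts and 2 with spike-in library sizes, under which the members' median was 0.73 and that of all genes -0.24.

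The single member that fell from 35 to 40 days was APZ42_001280, from 9.77, 14.9 and 8.86 CPM to 5.65 and 4.44 CPM. The ages did not overlap, and the change was -1.22 ± 0.33 log2 (SE, adjusted p = 0.0394, edgeR), in a step where 0.645% of genes fell. The call was lost in each of the 5 fits that left out 1 library of these ages, where the change ran from -1.60 to -0.91. It was also lost with no filter on low counts, with spike-in library sizes and with the spike-in cluster in the model, and DESeq2 called 2 members. The members did not move together here. Of the 39 changes 25 were positive and 14 negative, with a median of 0.09.

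The step from 45 to 50 days was the one in which most members were called. All 39 changes were negative, from -2.32 to -0.59 log2 with a median of -1.51, and 26 fell where 3.43% of all genes did. The median of all genes was 0.03. APZ42_017600 went from 148, 193 and 112 CPM at 45 days to 47.9, 31.2 and 36.8 CPM at 50 days, without overlap. Its change was -1.66 ± 0.26 log2 (SE, adjusted p = 0.000747, edgeR). APZ42_007082 went from 64.2, 69.9 and 50.8 CPM to 21.2, 18.6 and 15.8 CPM, again without overlap, a change of -1.48 ± 0.26 log2 (SE, adjusted p = 0.00153, edgeR). DESeq2 called 35 members in this step. The edgeR count was 15 without 45-day replicate 1, 6 without 45-day replicate 2, 14 without 50-day replicate 1 and 6 without 50-day replicate 2. It was 8 with spike-in library sizes, with all 39 changes still negative and a median of -1.77. The abundant block averaged 10.9% of counts at 45 days and 26.4% at 50 days, where single libraries ranged from 7.35% to 54.7%, and its part in the step was not tested.

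The 70-day group is 1 library, so in the step from 70 to 75 days the age and that library cannot be told apart, and the test assumes that it varies like the other ages. In that comparison 5 members were called higher at 75 days, where 0.995% of genes were, and all 39 changes were positive with a median of 1.17 log2. APZ42_021651 was at 17.5 CPM at 70 days and at 81.9, 108 and 95.2 CPM at 75 days, a change of 2.66 ± 0.49 log2 (SE, adjusted p = 0.00586, edgeR). APZ42_017600 was at 39.4 CPM and then at 120, 118 and 141 CPM, a change of 1.89 ± 0.40 log2 (SE, adjusted p = 0.0154, edgeR). For both genes the 3 later libraries lay above the earlier one. The count was 10 without 75-day replicate 2, 2 without 75-day replicate 3, 13 without the libraries under 6000000 counts and 0 with spike-in library sizes. Under spike-in sizes the median of all genes was -0.53 and that of the members 0.53, with 37 changes positive and 2 negative.

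A pair of longer spans, from 10 to 30 days and from 65 to 80 days, was also chosen after the levels were seen. From 10 to 30 days 36 members fell, where 7.36% of genes did, with changes from -2.77 to -1.02 log2 and a median of -1.94. With the spike-in cluster in the model 34 fell. APZ42_017600 fell from 301, 180 and 284 CPM to the 30-day values given above, by 2.31 ± 0.26 on the log2 scale (SE, adjusted p = 2.91e-06, edgeR). APZ42_001280 fell from 23.1, 12.2 and 19.3 CPM to 4.24, 2.73 and 1.86 CPM, by 2.48 ± 0.29 on the log2 scale (SE, adjusted p = 3.57e-06, edgeR). In both genes the ages did not overlap.

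From 65 to 80 days 11 members rose, where 4.1% of genes did, and all 39 changes were positive with a median of 1.34 log2, beside 0.14 for all genes. APZ42_007082 went from 6.72 and 3.57 CPM to 35.1, 29.6 and 29.5 CPM, a change of 2.06 ± 0.32 log2 (SE, adjusted p = 0.000406, edgeR). APZ42_017600 went from 24.9 and 8.52 CPM to 60.5, 69.3 and 78.7 CPM, a change of 1.63 ± 0.30 log2 (SE, adjusted p = 0.00221, edgeR). Neither gene overlapped between the ages. The count of 11 was 3 without 65-day replicate 2, 6 without 80-day replicate 1 or 3, 7 without 80-day replicate 2, 16 at the highest when 1 library was left out, 7 without the libraries under 6000000 counts and 0 with spike-in library sizes. It rests on 2 libraries at 65 days, of which 1 is shallow with 5058275 counts and the other had 66.5% of its counts in the abundant block.

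Set against the spike-in counts, which do not come from the animals, the members' summed counts were 83.2% of the spike-in counts at 10 days, 10.4% at 30 days, 17.9% at 45 days, 5.18% at 50 days, 4.95% at 60 days and 11.6% at 80 days. The scales did not order all ages alike. The 65-day mean, the lowest in CPM, was 5.65% of the spike-in counts, above those of 50 and 60 days. The 75-day mean, at 8.93%, lay below those of 30 and 80 days, whereas in CPM it lay above both. The fall from 10 to 30 days was steeper on the spike-in scale, on which the median change of all genes over that span was -1.05 log2 and that of the members -3.02.

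The members moved together across female libraries. Over their 741 pairs, Pearson's r of log2(CPM + 1) ran from 0.582 to 0.988 with a median of 0.870, and a first principal component held 85.8% of their variance. Once each gene's age means were removed, the median r was 0.627, and it was 0.488 without 75-day replicate 2. These are descriptions over 39 libraries that share their ages and depths. Among 10163 genes outside the set with a female median of at least 5 CPM, 222 or 2.18% had an r of 0.9 or more with the mean of the members, and 31 of the 39 members did. A member is itself part of that mean, which raises its r, whereas an outside gene is not. The median r of the outside genes was 0.341, and the lowest was -0.824. Of the 222 genes, 40 had a male median under 1 CPM, 7 had a male median above the female one, and their male median was 28.9% of the female one at the median. For all outside genes it was 90.6%. The course over female libraries was thus shared with genes outside the set, most of which males also expressed. This r is over single libraries and does not separate age from differences within an age. No 2 members had successive ID numbers, and the smallest gap was 14.

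Replicates of 1 age differed more for the median member than for most genes outside the set with a female median of at least 5 CPM. The SD of log2 CPM around the age means was 0.754 at the median over the members, from 0.308 in APZ42_017600 and 0.319 in APZ42_007082 to 1.15 in APZ42_019919 and 1.35 in APZ42_021151. It was 0.342 at the median over the 10163 outside genes, 89.7% of which lay below the members' median. The value rested in large part on 1 library. Without 75-day replicate 2 the members' median was 0.374 and that of the outside genes 0.286, and 69.7% of the outside genes lay below the members' median. The outside genes were not matched to the members in level, and low counts widen an SD of log2 CPM. The part of counting error in the difference was not tested.

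In 75-day replicate 2 the members did not fall alike. Set against the mean of the other 75-day libraries, they ran from 0% to 139.8% with a median of 15.4%. Of the 39, 21 were under 20%, 9 over 50% and 6 over 80%. APZ42_004779 had 1 count, or 0.446 CPM, beside 34.0 and 43.2 CPM in replicates 1 and 3, while APZ42_017600 had 118 CPM beside 120 and 141 CPM and APZ42_021651 had 108 CPM beside 81.9 and 95.2 CPM. With 2242215 counts in that library, 1 member had no count and 19 had 1 to 10 counts, so the lowest values rest on few counts, whereas the difference between members spans more than that error.

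A like split appeared at 35 days. There, replicate 2 was the high library, and the mean of replicates 1 and 3 was 28.2% to 112.5% of it, with a median of 52.8%. It was under 60% for 26 members and over 80% for 8. The 6 members that were over 80% there and over 50% in 75-day replicate 2 included APZ42_017600 and APZ42_021651, and across the 39 members the 2 percentages had a Spearman rho of 0.800. This is a description across genes of 6 libraries, with no test. The ages and replicates set against each other here were chosen after the levels were seen. On the members' own second principal component, 75-day replicate 2 and 35-day replicates 3 and 1 had the highest scores, at 8.56, 2.93 and 1.95. A choice of libraries that stand out in the same way favours a high rho. APZ42_017600 and APZ42_021651 were named above by their small p in the step from 30 to 35 days. That choice favours genes high in every 35-day library, so their place here is not a separate result.

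**Figure D5:**
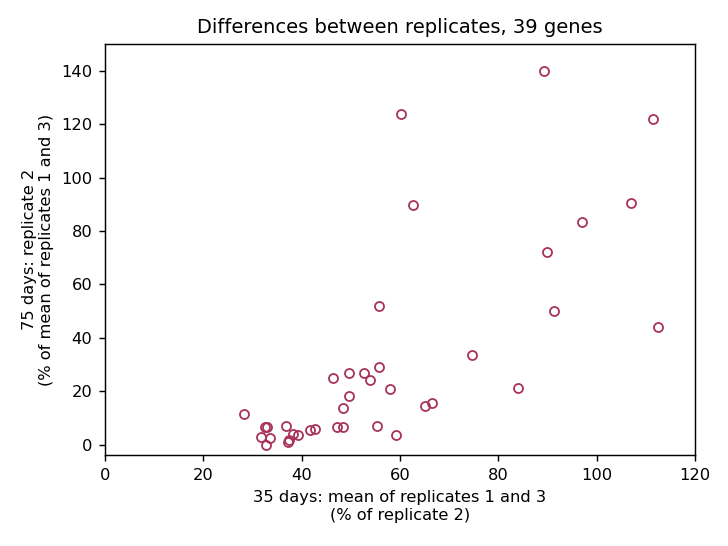
Each of the 39 genes by its level in replicates 1 and 3 of 35 days as a percentage of replicate 2 (horizontal) and its level in replicate 2 of 75 days as a percentage of the mean of replicates 1 and 3 (vertical). Most genes lie at the lower left, at medians of 52.8% and 15.4%, and 6 lie above both 80% and 50%.

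Counts of the 39 genes in males were few and scattered. Of the 1443 values of a member in a male library, 804 or 55.7% were 0 and 165 were a single count. The 639 values above 0 had a median of 3 counts, 59 were of 10 counts or more, and the highest was 32. In all, males held 2707 counts of the members. The male median was 0 for 24 members, and no member was at 0 in all male libraries. The male mean of a member was 0.0894% to 2.11% of its female mean, with a median of 0.244%, and the highest share was that of APZ42_001280, the member with the lowest female median. This gene lay just inside both limits of the rule, a place that favours a high share.

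The stray counts followed the female levels in part. APZ42_031851 and APZ42_017600 had the most, with 159 counts in 28 male libraries and 138 counts in 25. APZ42_021151 and APZ42_016640 had the fewest, with 10 counts in 2 libraries and 11 counts in 6. Across members, the log2 means in females and males had a Pearson r of 0.54 and a Spearman rho of 0.498, given as a description across genes of shared libraries. Among these members, those with high female levels tended to have more counts in males, with wide scatter. The rule bounded both levels, and CPM are not divided by transcript length. The part of either in this relation was not tested. The source of these counts was not tested.

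By library, the males ran from 0 counts in 33-day replicate 3 to 267 counts in 10-day replicate 2. The former is the shallowest library, where 0 of 1599627 counts allows a summed level of up to 1.88 CPM by a limit of 3 counts, which covers counting error only, so that the median male level of 3.32 CPM would have been above it. The latter held 9.86% of all male counts of the members and 24.3 CPM, with a count for 30 of the 39 genes. The other 10-day males held 3.93 and 2.60 CPM, and the next highest male library 7.88 CPM. In 10-day replicate 2 the members' levels followed their 10-day levels in females with a Spearman rho of 0.681 across genes. Without it the SD over male libraries went from 3.84 to 1.71 CPM and the median from 3.32 to 3.29 CPM.

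The stray counts were not always spread over the set. In 18-day replicate 1 all 10 counts belonged to 1 member, and 10-day replicate 1 had 77 counts in 10 members, while 8-day replicate 1 had 77 counts in 26 members. The 2 technical runs of 10-day replicate 3 held 2.26 and 2.82 CPM, with counts for 14 and 18 members. Runs of 1 sample thus differed little from each other beside the range over libraries.

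No trend of the stray counts with male age was tested in the main comparison, because 0 of the 39 members passed the filter on low counts in males, where 32.7% of the 16606 genes that passed were called. The median summed level was 2.82 CPM over 14 libraries of 8 to 20 days, 4.44 CPM over 11 libraries of 23 to 30 days and 2.74 CPM over 12 libraries of 33 to 40 days. With no filter, 1 member rose and 3 fell with male age by edgeR, where 12.0% of genes rose and 13.1% fell, and DESeq2 called 1 of 30 members with an adjusted p, lower with age, where 14.9% of genes fell. The authors' deposited table for an interaction of sex with age gave 5 members a positive and 2 a negative change below an adjusted p of 0.05, where 5.92% and 9.34% of genes had one. The male side of that comparison has only the stray counts, and what gave these calls was not tested. All 39 were higher in females in the authors' deposited table for sex, which the rule fixes.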

How the data were processed

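RNA of whole animals was sequenced from Illumina TruSeq mRNA libraries, per the labels' protocols. The submitters' processing notes name TopHat2 2.1.1 and DESeq2 1.20. For the counter, strand use, genome build and annotation nothing is given in the sources used here. A count shared by near-identical or overlapping genes is uncertain. The deposited counts are whole numbers without normalisation, for 26646 genes and 7 spike-in RNAs in 80 columns. Spike-in counts entered neither library sizes nor tests, save in the alternatives with spike-in library sizes or the spike-in cluster (2 groups of libraries by the ratio of 2 spike-in RNAs), as a covariate or within each cluster. The authors' deposited tables give, per the file headers, a mean normalised signal, log2 changes and their errors, a score and p-values, of which the change and adjusted p are used.

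The sample titles gave sex, age and replicate. The labels mark 3 of the 80 columns as excluded samples, which entered no comparison, and 2 technical runs of 1 male sample were summed. CPM are a library's counts scaled to a total of 1000000 gene counts. Tests used edgeR 4.0.16 in R 4.3.3 (TMM, filterByExpr, quasi-likelihood F-test) over all genes, with Benjamini-Hochberg adjustment at 0.05. Fitted changes are on TMM-scaled sizes, and printed levels on column totals. Correlations used log2(CPM + 1), and replicate SDs log2 CPM with a prior count of 2. Alternatives were relative log expression, no filter, DESeq2 1.42.0, spike-in library sizes, sizes without 7 abundant genes, a replicate block, no shallow libraries, the spike-in cluster or log2 library size as covariate, and leaving out each library. The scripts were tested on simulated data.

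Per comparison, at most 2 rising and 2 falling members of the smallest p were named, with those at the limits of the rule and the extremes of female level, male counts and replicate spread. APZ42_027211, APZ42_021045 at 35 days and APZ42_004779 at 75 days were named after their values were seen. The members and comparisons were chosen with earlier results of these data known. The successive ages, the longer spans and the comparisons between replicates of 35 and 75 days were chosen after the levels were seen.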

Additional observations from a re-analysis of the deposited data

Results flagged for a closer look

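The labels mark 3 libraries as excluded, and these entered no comparison. A library labelled as a male of 20 days held 1756 CPM of the 39 genes and one labelled as a male of 25 days held 1673 CPM, each with counts for all 39. Both lie far above the highest male library in the comparisons, at 24.3 CPM, and within the range of female libraries. The labels already mark both as mislabelled and not used.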

How the results depend on the processing

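The count of 39 members that fell over female age was 39 under each alternative and with each of the 39 libraries left out, except within the larger spike-in cluster, with 38, and within the smaller one, with 0. Positive curvature, 5 called, came to 8 with DESeq2, 38 with spike-in library sizes (39.4% of all genes), 10 without the shallow libraries, 1 with the spike-in cluster as covariate, 0 within either cluster and 2 to 11 with 1 library left out. The slope of 10 to 40 days, 17 called, came to 39 with spike-in sizes, 11 with the cluster, 8 with log2 library size and 6 to 29 with 1 library left out. The step from 30 to 35 days, 13 called, came to 2 with spike-in sizes, 22 without the shallow libraries and 6 to 9 with 1 left out. The step from 45 to 50 days, 26 called, came to 8 with spike-in sizes and 6 to 24 with 1 left out. The step from 70 to 75 days, 5 called, came to 9 with DESeq2, 0 with spike-in sizes, 13 without the shallow libraries and 2 to 10 with 1 left out. The span from 65 to 80 days, 11 called, came to 17 with DESeq2, 0 with spike-in sizes, 7 without the shallow libraries and 3 to 16 with 1 left out, and the span from 10 to 30 days, 36 called, to 29 to 36. The male slope, in which no member passed the filter, had 4 called members with no filter and 1 with DESeq2. The single call from 35 to 40 days was lost with each of the 5 libraries left out. Apart from the reasons given by fewer libraries or other sizes, the cause of these moves was not tested. The members' median replicate SD of 0.754 came to 0.374 without 75-day replicate 2. The rule itself gave 27 to 57 members under the other limits and scalings tried and 35 to 40 with 1 library left out.

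The replicate numbers did not pair the libraries. Deviations of same-numbered libraries from their age means had a median r of 0.00145 beside -0.00546 for other pairs, and 8 of 38 libraries correlated best with their own number. With a replicate block the slope of 10 to 40 days had 11 called members, the step from 70 to 75 days 2 and the step from 45 to 50 days 28. The other counts under the block lay within 1.5 times those without it. Of 412 values, under alternatives, of members named for the smallest p, 393 kept their direction and call, 19 kept the direction without the call and 0 reversed. These members were picked from those called, and the alternatives reuse most of the same libraries, so keeping the call was favoured by the choice. The counts over all members, given above, moved more. Depth limits the lowest values, where 1 count is 0.446 CPM in the shallowest female library.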

Other observations

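The excluded library labelled as a female of 20 days held 40 counts of the 39 genes among 11624900, or 3.44 CPM, with a count for 21 of them. This is within the range of the male libraries and below the lowest female library, at 204.4 CPM. The labels mark this library too as mislabelled.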
